A study of Lens culinaris with 18 samples.

Results

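The transcripts described here are the 117 assembled lentil transcripts, of 124151 in all, that were raised in both root and leaf after 24 h of water deficit and that, in root at 96 h, lay within 2-fold of the unstressed plants. The plants were seedlings of Lens culinaris cultivar Sultan, wild type by label, moved at the age of 7 days to aerated Hoagland nutrient solution. Stressed plants had 15% polyethylene glycol (PEG) in the solution, a polymer that holds water back from the root, and controls had the solution alone. RNA with a poly(A) tail was sequenced from root and from leaf, after 24 h and after 96 h, with and without PEG, in 2 biological replicates, which gives 8 groups and 16 libraries. The remaining 2 of the 18 samples, unstressed stem, were not analysed here.

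Plants answer a fall in water supply in both root and shoot. In general, the root meets the dry medium directly, and the leaf meets it through a smaller water flow and through hormones, abscisic acid above all, which closes stomata and switches on a set of genes for protective proteins such as dehydrins and other late embryogenesis abundant proteins, for enzymes of compatible solutes, and for the phosphatases that damp the hormone signal. The deposited matrix does not pair its identifiers with gene names, so which of these functions the 117 transcripts have is not stated here, and the tissue labels could not be set against named marker genes. Members are given by their rank in the selection, and identifiers are printed for 4 of them.

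Each value is a TMM-scaled expression level that behaves like a TPM (reads per transcript length, scaled to a common total per library) times 1 factor per library. Library totals in this unit ran from 514669 to 943452 in 13 libraries and from 5832574 to 6997679 in the other 3, the leaf 96 h PEG libraries and root 24 h control replicate 2. In those 3, transcripts of the component DN47470_c0 held 76.3% to 92.4% of the signal, while root 24 h control replicate 1 had 23.3% and no other library more than 0.0991%. Read depth was unknown. In whole organs, fewer cells of a type and less RNA per cell cannot be told apart.

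The members were chosen by measured values, which are given here as a description and not tested. A transcript needed a mean of at least 2 over the 8 leaf libraries and over the 8 root libraries, which 15761 transcripts had. With 1 added to every value, the lowest 24 h PEG library then had to stand at least 2-fold above the highest 24 h control library, which held for 792 transcripts in leaf, for 1137 in root and for 170 in both tissues. Of these 170, 38 had a root 96 h ratio of PEG to control means under 0.5 and 15 had one over 2, and they were left out. The remaining 117 are fewer than the 150 that the selection would have allowed, so all are described. They were ranked by the smaller of their 24 h ratios. The member closest to the limit had a smaller 24 h ratio of 2.002, and the transcript just outside had 1.99985. The root 96 h ratio ran from 0.511 to 1.96 among the members, and the nearest transcripts left out on either side had 0.4995 and 2.02.

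The size of the 24 h rise differed widely among members, more so in leaf than in root. In root the ratio of the lowest PEG to the highest control library had a median of 2.81 and a highest value of 19.4, with 33 members at 4 or more. In leaf the median was 2.59 and the highest value 531, with 26 members at 4 or more and 12 at 10 or more, a level that 4 members reached in root. Both ratios were at least 4 in 12 members. The leaf ratio was at least 4 times the root ratio in 9 members, and the reverse held in 3.

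**Figure D1:**
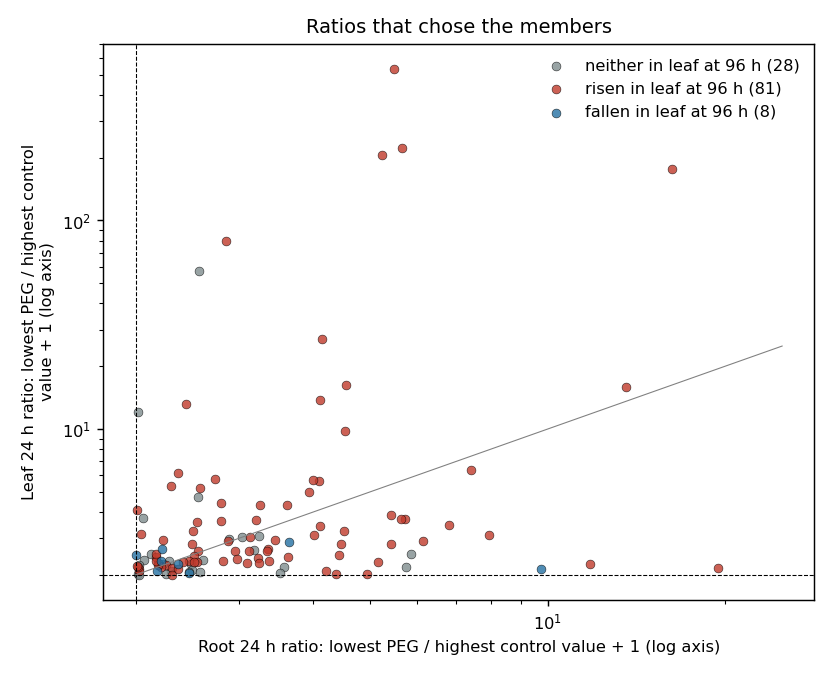
Ratios at 24 h that chose the members, with the root ratio on the x axis and the leaf ratio on the y axis, both on log axes, dashed lines at the limit of 2 and the grey line where both ratios are equal. Points are the 117 members, coloured by their call in leaf at 96 h, a contrast that set none of the ratio limits; the members with leaf ratios of 10 or more reach 531, while no root ratio exceeds 19.4.

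The member of rank 1 was listed at 0 in both root 24 h controls and stood at 15.3 and 19.8 in the PEG libraries. In leaf it went from 6.08 and 6.17 to 1270 and 1462. The same transcript thus came to levels in leaf that were far above those in root. Rank 2 was held by a member at 0.161 and 0 in the root controls and at 19.9 and 14.8 under PEG, and in leaf it went from 19.01 and 17.3 to 317 and 389. In root the member of rank 3 moved from 2.74 and 0 to 41.3 and 26.7, and in leaf from 2.69 and 2.48 to 55.4 and 22.4, so its levels under PEG were alike in the organs. For rank 4, the member moved from 0.530 and 0 to 15.2 and 7.66 in root and from 2.96 and 2.81 to 878 and 884 in leaf. In all of these the groups were apart by construction.

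The order of the organs was the opposite in the member of rank 73, singled out after its values were seen because it was the most abundant member in root under 24 h PEG. It went from 176 and 384 to 4548 and 5674 in root, and only from 10.7 and 8.57 to 25.3 and 32.4 in leaf. Chosen in the same way for the largest root ratio, the member of rank 88 went from 11.6 and 0 to 243 and 248 in root and from 12.6 and 9.41 to 37.1 and 28.2 in leaf. Low control values were common: 11 members were under 1 in both root 24 h controls and 17 were under 1 in both leaf 24 h controls. In root 24 h control replicate 2, one of the libraries filled by DN47470_c0, 21 members were listed at 0, against 4 in replicate 1. Without that library 145 transcripts met the limits; leaving out a 24 h control can only loosen them, so how far the choice of members rests on it is not shown by this number.

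Together the members went from a small to a sizeable share of the RNA at 24 h. With DN47470_c0 left out, they held 0.664% and 0.823% of the signal in the root 24 h controls and 2.92% and 3.23% after PEG. In leaf they held 0.336% and 0.352% in the controls and 3.59% and 4.78% after PEG. These shares do not depend on the factor of the library, and no test was made on them because 24 h values chose the members. In leaf 24 h PEG replicate 2 the member of rank 5 was the most abundant of all transcripts in the library.

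**Figure D2:**
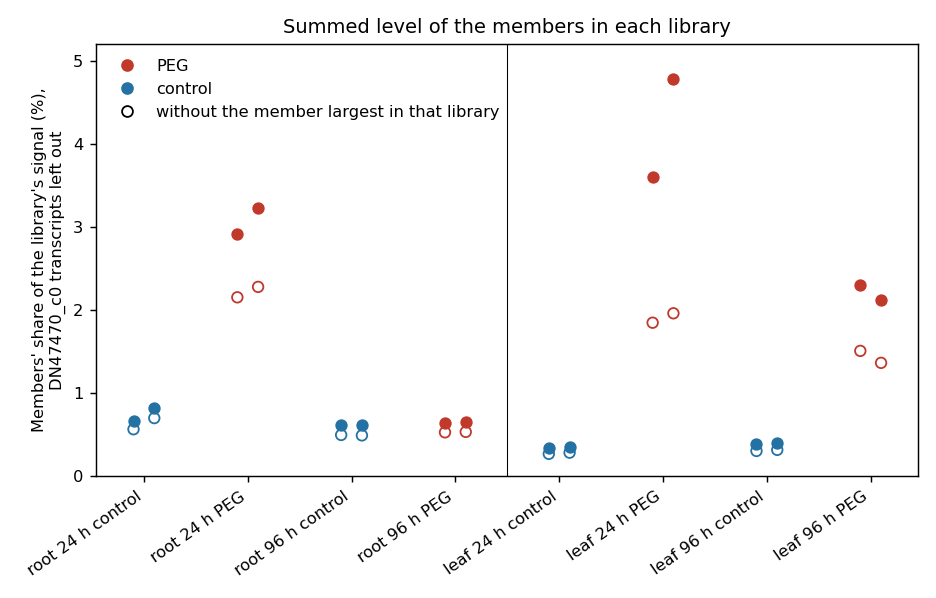
Share of each library's signal held by the 117 members, in percent with the DN47470_c0 transcripts left out (y axis), for the 2 libraries of each group (x axis); open circles leave out the member that was largest in that library. The 24 h PEG libraries of both tissues and the leaf 96 h PEG libraries stand above all controls, while the root 96 h PEG libraries, at 0.642% and 0.649%, stand beside theirs. The 24 h values chose the members, and the selection held the root 96 h groups of each member within 2-fold of each other.

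In root nearly all members were below their 24 h PEG level by 96 h. The median member, as a back-transformed mean of log2(value + 1), stood at 8.995 in the 24 h controls, 50.0 after 24 h of PEG, 10.99 in the 96 h controls and 9.88 after 96 h of PEG. The 96 h PEG mean lay at or below the highest 24 h control in 68 members, between that and the lowest 24 h PEG library in 46, and at or above the latter in 3. Closeness of the 96 h groups to each other was required by the selection. No limit was set on their place between the 24 h groups, but these libraries entered the root mean of at least 2. For the 96 h controls the same counts were 55, 54 and 8. The 96 h PEG libraries were both below both 24 h PEG libraries in 111 of 117 members, against 35.5% of the 15761 transcripts with a mean of at least 2 in both tissues. Since the 24 h PEG values had to be high, a lower level later is favoured by the selection itself, and the count is a description.

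The members' summed share in root at 96 h was 0.620% and 0.616% in the controls and 0.642% and 0.649% after PEG, back near that of the 24 h controls. The few members whose root 96 h PEG mean reached their 24 h PEG level were there with and without PEG. All 3 had control means there too. Among them the member of rank 38 was low throughout. It was at 1.725 and 2.292 after 24 h of PEG, 3.859 and 3.951 in the 96 h controls and 4.189 and 2.874 after 96 h of PEG. Without either root 96 h group its mean over the other 6 root libraries was under 2. It thus met the root limit only through 96 h libraries and had to be raised there. The selection held the root 96 h groups within 2-fold of each other, which favours this. For 51 members both 96 h groups were at or below the 24 h controls. Of the 117, 76 had a root 96 h ratio under 1.

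In leaf at 96 h most members were raised under PEG. The selection set no limit on this contrast, but the leaf 96 h libraries entered the leaf mean of at least 2. It was tested with limma on log2(value + 1) over all 28176 transcripts that passed a filter on low values. All 117 members passed that filter. Of them, 81 rose and 8 fell under PEG (limma, adjusted p under 0.05) and 28 did neither, where 16.9% of all transcripts tested rose and 42.2% fell, as did 16.4% and 48.1% of those with a mean of at least 2 in both tissues. Members of ranks 14, 29, 34, 36, 44, 61 and 96 had a mean under 2 over the other 6 leaf libraries and met the limit only through the leaf 96 h PEG libraries, so that these 7 had to be high there, and all 7 are among the rises. Of the other 110 members, 74 rose and 8 fell, with a median log2 fold change of 1.27. The median log2 fold change was 1.38 in the members and −0.59 over all transcripts. Of the 117 members, 70 rose at least 2-fold and 46 at least 4-fold, and both counts include these 7. Over all 28176 tested, 3723 and 1847 did. Among the 15744 tested with a mean of at least 2 in both tissues, 1726 and 684 did. In 87 members both PEG libraries lay above both controls, against 21.5% of all transcripts, and in 14 both lay below, against 53.3%. Whichever library was left out, 74 of the 81 rises were kept. Without leaf 96 h PEG replicate 1 the falls numbered 16, and without either leaf 96 h control replicate they numbered 5.

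**Figure D3:**
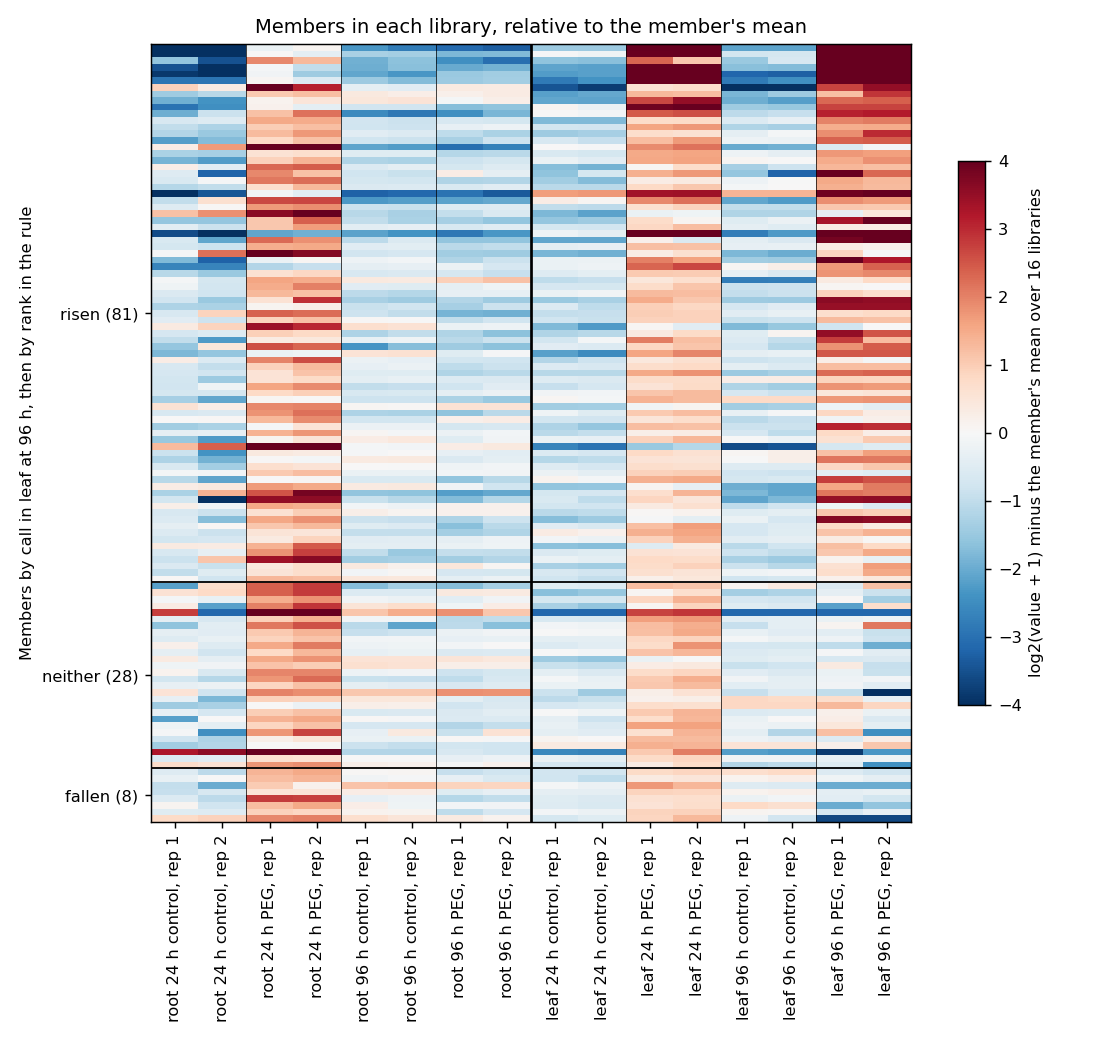
Levels of the 117 members (rows, grouped by their call in leaf at 96 h and then by rank) in the 16 libraries (columns), as log2(value + 1) minus the member's own mean, with red above and blue below that mean and the scale ending at 4 either way. Both 24 h PEG libraries are red for 108 members in leaf and 103 in root, and both leaf 96 h PEG libraries for 70 of the 81 members that rose. The root 96 h PEG columns look like their controls, within 2-fold of which the selection held them.

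The leaf libraries can also be read without the deposited factors. Shares with DN47470_c0 left out still depend on the total they are taken from, which is that of the scaling with the component removed. Ranks within a library need no total. With DN47470_c0 left out, the members held 0.389% and 0.402% of the leaf signal in the 96 h controls and 2.30% and 2.12% under PEG. Without the member that was largest in each library these shares were 0.304% and 0.317%, and 1.51% and 1.36%. Ranked among the 15761 transcripts with a mean of at least 2 in both tissues, the median member stood at the 48.0th and 47.5th percentile in the 96 h controls and at the 87.2nd in both PEG libraries. There were 11 members in the top 10% of either control library and 49 and 52 in the top 10% of the PEG libraries. These shares and ranks include the 7 members that met the leaf mean only through the leaf 96 h PEG libraries, and were not computed without them. The median member thus moved from the middle of the ranking into its upper part, and its percentile was alike in the 2 libraries of each group. Single transcripts were less alike under PEG. Between the leaf 96 h PEG libraries 16 members were at least 2-fold apart, against 1 between the 96 h controls. Of the 15761 transcripts 3410 were, against 142. The limma fit used a common spread for all leaf groups.

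How many members count as risen depends on the factor given to the leaf 96 h PEG libraries, both of which were filled by DN47470_c0, so that this component and the treatment cannot be told apart. With median-ratio size factors 91 rose and 4 fell, where 23.7% of all transcripts tested rose and 32.8% fell. With DN47470_c0 removed and libraries brought to the same total 59 rose and 23 fell, against 10.1% and 60.5% of all. With libraries brought to the same total and DN47470_c0 kept, 28 rose and 74 fell, against 2.30% and 82.9% of all. This last scaling by itself lowers every other transcript in those libraries, and the median of all transcripts fell by 1.99 there. Relative to the median of all transcripts, the median member was higher by 1.97 log2 units as deposited, 2.14 with median-ratio factors, 1.64 with the component removed and 0.74 with it kept in the total. Members above the median of all transcripts numbered 110, 110, 104 and 82 in the same order. These leads hold for the members as chosen on the deposited values, including the 7 that met the leaf mean only through the leaf 96 h PEG libraries. Chosen anew with the component kept in the total, 271 transcripts met the limits, of which 32 rose and 215 fell in leaf at 96 h, with a median of −1.94 against −1.99 over all transcripts.

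**Figure D4:**
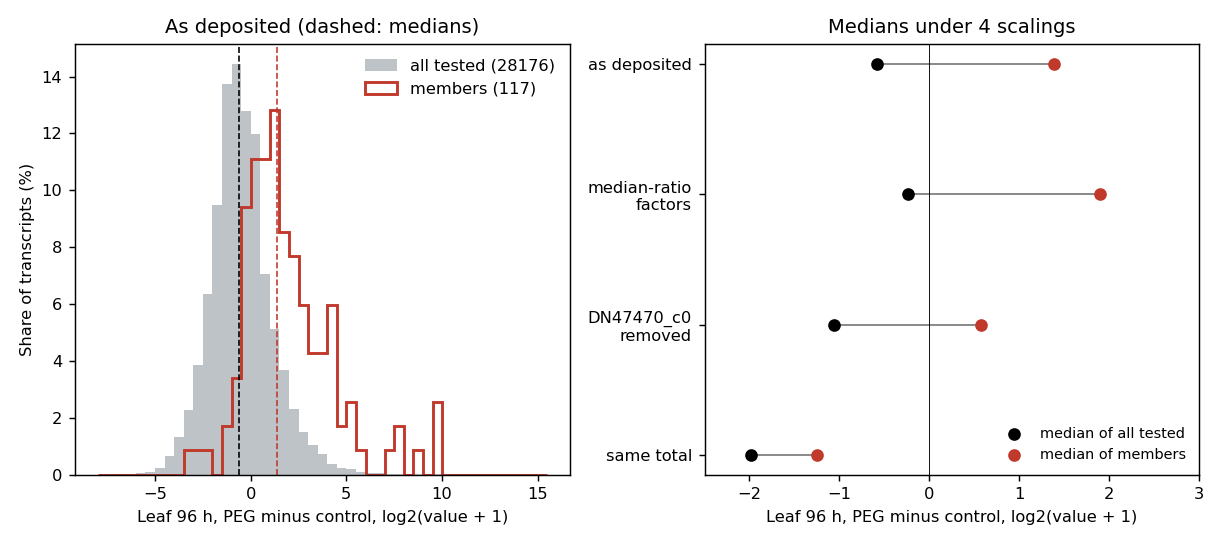
Log2 fold changes in leaf at 96 h, PEG minus control on the log2(value + 1) scale. The left plot shows the share of transcripts per bin for the 117 members (red outline) and all 28176 tested (grey) with dashed medians of 1.38 and −0.59; the right plot shows both medians under 4 scalings, with the members to the right of all transcripts each time by 0.74 to 2.14.

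The members with the largest rises in leaf at 96 h were also far up in leaf at 24 h. TRINITY_DN48308_c0_g1, of rank 5, had the highest mean of all members. It was at 22.2 and 23.7 in the leaf 24 h controls, at 13092 and 22733 after 24 h of PEG, at 11.3 and 10.4 in the 96 h controls and at 10401 and 12026 after 96 h of PEG (96 h log2 fold change 9.88, SE 0.25, limma adjusted p = 1.73e-05). In root it was at 6.55 and 4.14 in the 24 h controls, 98.1 and 40.5 after 24 h of PEG, 25.0 and 21.1 in the 96 h controls and 38.5 and 41.3 after 96 h of PEG. Its highest root library was thus below 100, while the lowest of its 4 leaf PEG libraries stood at 10401.

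TRINITY_DN47768_c0_g1, of rank 33, was at 31.3 and 28.2 in the leaf 24 h controls and at 2587 and 3306 after PEG, and at 4.56 and 6.71 in the 96 h controls and 5372 and 6069 after PEG (log2 fold change 9.77, SE 0.20, limma adjusted p = 1.14e-05). In root it was low throughout, at 2.11 and 1.05 in the 24 h controls, 7.85 and 8.95 after 24 h of PEG, 7.54 and 6.10 in the 96 h controls and 4.195 and 6.398 after 96 h of PEG. Its root rise at 24 h is therefore a rise from and to low values, and both 96 h root groups overlapped. The call in leaf was kept by both transcripts under each of the 3 other scalings, with log2 fold changes of at least 6.77 and 6.65.

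The next 3 rises in leaf at 96 h were those of the members of ranks 1, 6 and 4. The member of rank 1 went from 3.49 and 3.499 to 3490 and 3826 (log2 fold change 9.67, SE 0.10, limma adjusted p = 1.45e-06). From rank 6, a member went from 0.056 and 0.388 to 439 and 527, and that of rank 4 from 4.42 and 4.204 to 1205 and 1446. In root at 96 h these 3 were at 4.40 or less in every library. Timing in leaf differed in the member of rank 3, which stood at 55.4 and 22.4 after 24 h of PEG and at 920 and 993 after 96 h, over 96 h controls of 3.00 and 6.18 (log2 fold change 7.48, SE 0.46, limma adjusted p = 8.80e-05).

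Falls in leaf at 96 h were few, and 4 of the 8 were at least 2-fold, against 9744 of the 11898 falls over all transcripts tested. TRINITY_DN49515_c4_g4, of rank 32, was at 51.3 and 51.6 in the leaf 24 h controls, 150 and 159 after 24 h of PEG, 139 and 152 in the 96 h controls and 59.8 and 50.5 after 96 h of PEG (log2 fold change −1.39, SE 0.11, limma adjusted p = 0.000193). Its 96 h controls stood well above its 24 h controls and near its 24 h PEG libraries, so the fall was from a control level above that of 24 h. In root it was at 60.4 and 41.4 in the 24 h controls, 223 and 251 after PEG, 90.04 and 92.5 in the 96 h controls and 45.7 and 49.2 after PEG. At 96 h it thus lay lower under PEG than in controls in both organs.

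TRINITY_DN44924_c0_g3, of rank 102, was at 13.9 and 12.9 in the leaf 24 h controls, 29.5 in both 24 h PEG libraries, 16.6 and 16.2 in the 96 h controls and 9.31 and 12.1 after 96 h of PEG (log2 fold change −0.58, SE 0.15, limma adjusted p = 0.0150). In root it was at 10.6 and 10.3, then at 30.0 and 27.7 under PEG, and at 96 h at 16.7 in both controls and 7.05 and 9.28 under PEG. This call was lost without leaf 96 h control replicate 1 or 2 (limma adjusted p = 0.0815 and 0.0685) and with median-ratio factors (limma adjusted p = 0.739). Members of ranks 78, 72 and 90 fell by 0.50, 0.47 and 0.41 on the log2 scale, and with median-ratio factors their changes were 0.05, 0.03 and 0.13 and not called.

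**Figure D5:**
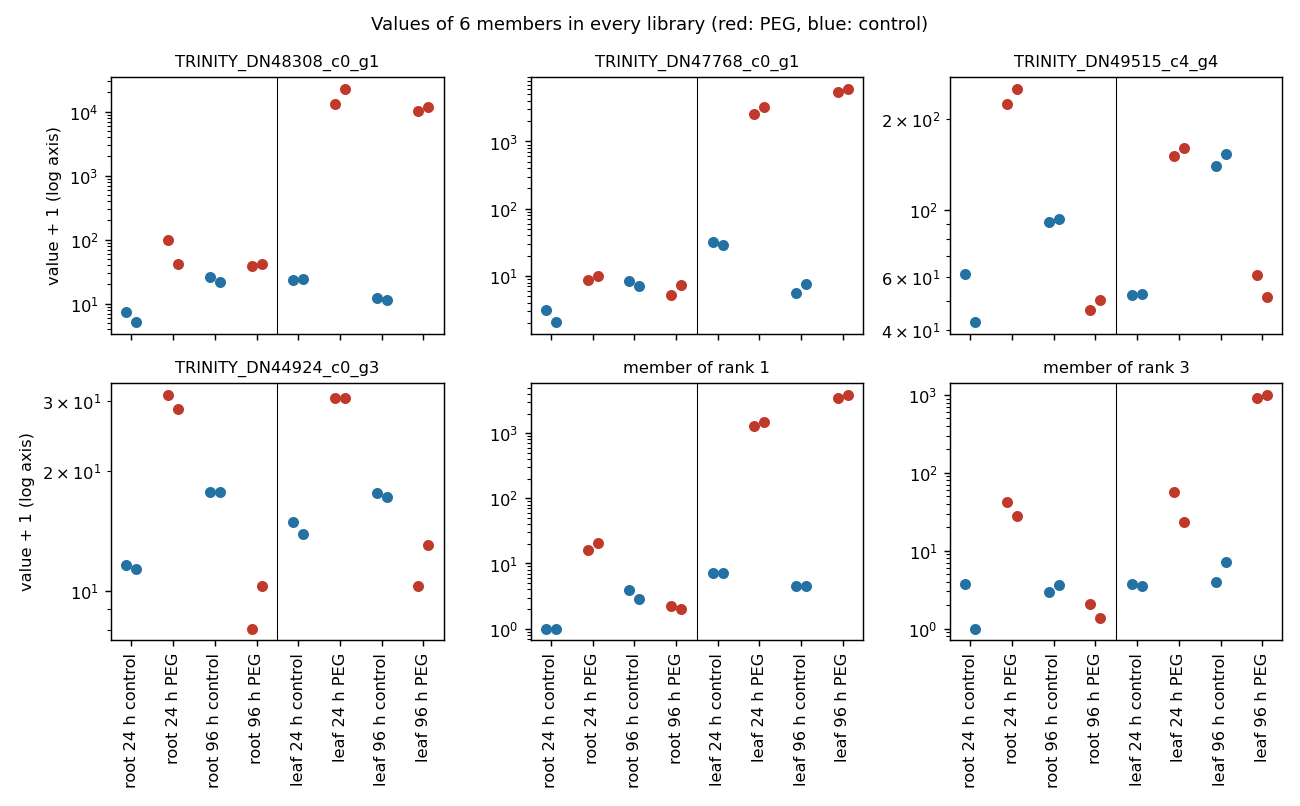
Values plus 1 (y axes, log scale, a separate range per plot) of 6 members in the 2 libraries of each group, root to the left of the line and leaf to the right. TRINITY_DN48308_c0_g1, TRINITY_DN47768_c0_g1 and the members of ranks 1 and 3 are high in leaf under PEG at 96 h, where the member of rank 3 reaches 920 and 993, while TRINITY_DN49515_c4_g4 and TRINITY_DN44924_c0_g3 lie below their 96 h controls.

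The members of ranks 117, 77 and 45, raised in leaf at 24 h, were listed at 0 there at 96 h under PEG. In these PEG libraries DN47470_c0 held 81.1% and 76.3% of the signal. Their low values fell on a grid with steps of 0.070 and 0.067, against 0.00749 to 0.00943 in the other leaf libraries. Read depth was unknown, and whether a 0 there means absence of the transcript was not tested. At the last rank, 117, the member was at 6.69 and 7.95 in the leaf 24 h controls, 21.4 and 29.8 after 24 h of PEG, 9.76 and 6.25 in the 96 h controls and 0 in both 96 h PEG libraries (limma adjusted p = 0.000230). Similarly, the member of rank 77 was at 12.2 and 8.97 after 24 h of PEG, at 1.80 and 1.73 in the 96 h controls and also at 0 in both 96 h PEG libraries (limma adjusted p = 0.00162). A member of rank 45 was at 56.5 and 62.9 in the leaf 24 h PEG libraries and listed at 0 in the other 6 leaf libraries. Ranks 77 and 45 were singled out after their values were seen, as the remaining members at 0 in both leaf 96 h PEG libraries. The member of rank 95, singled out likewise as the remaining fall of at least 2-fold, went from 5.91 and 5.22 in the leaf 96 h controls to 0 and 0.335 under PEG (log2 fold change −2.505, limma adjusted p = 0.000252).

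Among the 3 members with the highest means, after those of ranks 5 and 33, came the member of rank 111, which was abundant in every library. It stood at 630 and 579 in the leaf 24 h controls, 1268 and 1342 after 24 h of PEG, 670 and 674 in the 96 h controls and 605 and 649 after 96 h of PEG (log2 fold change −0.10, limma adjusted p = 0.322). In root it stood at 507 and 545, then 1152 and 1100 under PEG, and at 96 h at 730 and 736 in the controls and 584 and 638 under PEG. Its 24 h rise was about as large in both organs. By 96 h both organs were below their 24 h PEG levels. Leaf was then near its 24 h controls, while both root groups lay between the 24 h controls and 24 h PEG. With median-ratio factors its leaf change was 0.45 and called (limma adjusted p = 0.00332).

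In leaf the comparison of 96 h with 24 h of PEG depended on the measure. As deposited, the median member, as a back-transformed mean of log2(value + 1), stood at 9.89 in the 24 h controls, 40.0 after 24 h of PEG, 10.4 in the 96 h controls and 38.8 after 96 h of PEG. The 96 h PEG mean reached the lowest 24 h PEG library in 60 members, lay at or below the highest 24 h control in 20 and lay between in 37. From 24 h to 96 h of PEG, 23 members (19.7%) were at least 2-fold higher and 30 (25.6%) at least 2-fold lower, where 9.71% and 38.5% of the 15761 transcripts with a mean of at least 2 in both tissues were. The members' summed share with DN47470_c0 left out does not depend on the factor of the library. It was lower at 96 h, at 2.30% and 2.12% against 3.59% and 4.78% at 24 h. Without the largest member it was 1.51% and 1.36% against 1.85% and 1.96%. Among the 81 that had risen at 96 h, 57 were at or above the 24 h PEG level. The 96 h controls of leaf lay at or below the highest 24 h control in 57 members and reached the 24 h PEG level in 4.

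The calls in leaf at 96 h are given here by the 24 h ratios and the abundance of the members. All 20 members of ranks 1 to 20 rose in leaf at 96 h, as did 61 of the 97 others. Of the 33 members with a root ratio of at least 4, 30 rose, as did 51 of the 84 with a lower one. Of the 26 with a leaf ratio of at least 4, 23 rose, as did 58 of the 91 with a lower one. The 8 that fell had leaf ratios between 2.04 and 2.86, with a median of 2.30, and the 28 called neither way had a median of 2.27. By abundance, 18 of the 22 members with a mean of at least 100 over all libraries rose, 48 of the 73 with a mean between 10 and 100, and 15 of the 22 below 10. The mean over all libraries includes the leaf 96 h PEG libraries, so a large rise there by itself moves a member towards a higher class. Members of ranks 14, 29, 44 and 61, in the class below 10, reached the leaf mean only through those libraries. All these counts describe the members by values that chose them or that enter the leaf 96 h contrast, and they were not tested against each other.

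Lists chosen by the same 24 h limits are set beside the members here without a test of the difference. Of 38 transcripts raised at 24 h in both tissues but with a root 96 h ratio under 0.5, 26 rose and 6 fell in leaf at 96 h (median log2 fold change 1.92). Of 15 with a root 96 h ratio over 2, 7 rose and 5 fell. Of 622 raised at 24 h in leaf but not in root, 312 rose, which is 50.2%, and 132 fell. Of 967 raised in root but not in leaf, 966 were tested, and 298 rose, which is 30.8%, and 315 fell. The members stood at 69.2%, close to the 68.4% of the first of these lists. Without the 7 members that met the leaf mean only through the leaf 96 h PEG libraries they stood at 67.3%. The other lists passed the same limit on the mean and were not checked for such transcripts.

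Root was compared with leaf in unstressed plants at 96 h, a contrast on which the selection set no limit, although these libraries entered the tissue means and the root 96 h ratio. Root had the higher level for 29 members and leaf for 15 in these controls (limma over all 16 libraries, adjusted p under 0.05), or 24.8% and 12.8% of the members. The shares were 25.9% and 14.1% over all 41303 transcripts tested, and 18.996% and 18.7% over the 15761 with a mean of at least 2 in both tissues, as the members needed. No test was made of the members against either. The median log2 difference, root minus leaf, was 0.12 in the members, 0.14 over all transcripts and 0.04 over those 15761. Without root 96 h control replicate 1, 17 members were higher in root and 7 in leaf, and without replicate 2 these numbers were 21 and 7. Without leaf 96 h control replicate 2 they were 20 and 6.

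The member of rank 45 was listed at 0 in both leaf controls and stood at 18.0 and 24.0 in the root controls at 96 h (limma adjusted p = 0.0244). Leaving out any 1 of these 4 libraries ended that call (0.0874 to 0.118 as limma adjusted p). At rank 7 the member was at 22.6 and 21.8 in root and at 0.747 and 0.111 in leaf (log2 difference 4.06, SE 0.43, limma adjusted p = 2.59e-05). Among called members the largest differences the other way were in the members of ranks 23 and 11. The former was at 1.07 and 1.22 in root and at 48.7 and 48.6 in leaf (log2 difference −4.53, SE 0.22, limma adjusted p = 5.82e-08), and the latter at 1.22 and 0.771 in root and 5.26 and 5.77 in leaf (log2 difference −1.72, SE 0.38, limma adjusted p = 0.00461). Members at both ends of this range had risen in both organs at 24 h, as the selection required of every member.

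Under PEG at 96 h most members were higher in leaf. Leaf had the higher level for 79 members and root for 14 (limma, adjusted p under 0.05), against 13% and 34.3% of all transcripts and 17.9% and 46.5% of those with a mean of at least 2 in both tissues, with a median root minus leaf of −1.74 in the members and 0.32 over all. This contrast shares its leaf PEG libraries with the leaf response above, and the selection held the root PEG level near its control. The contrast thus repeats that response from another side. The 7 members that met the leaf mean only through these leaf libraries had to be high there, and all 7 are among the 79. Of the other 110 members, 72 were higher in leaf. Of the 79, 14 were higher in leaf in the controls too, 49 were called neither way there and 16 were higher in root there. Rank 7 was among the last, at 38.6 and 38.1 in root and 202 and 353 in leaf. Without root 96 h PEG replicate 1 or 2, members higher in root numbered 9 and 8. With DN47470_c0 removed and the same total, 48 were higher in leaf and 38 in root, against 6.12% and 48.0% of all transcripts tested. With it kept in the total 17 and 65 were, against 1.59% and 56.8% of all.

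The 117 transcripts lay in 117 assembled components. Those of ranks 11 and 52 came from 1 read cluster, the level above components in the assembly, and the others from 1 cluster each, which gives 116 clusters. Whether separate components come from 1 gene or from near-identical copies was not tested. In 66 of these components there were further transcripts, 163 in all, of which 47 had a mean of at least 2 in both tissues. Of these 47, 19 had all PEG libraries above all controls in both tissues at 24 h, and 32 had both 24 h ratios under 2; they are not members by definition, so that none met all limits is no result. How reads were divided between a member and its neighbours cannot be seen from these values.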

How the data were processed

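The values are a signal deposited by the authors, 1 per transcript and library. TMM, a factor per library, is named with the deposited matrix, and in every library 100% of values between 0 and 0.5 fell on a grid such as TPM with 2 decimals gives after scaling. Per the submitters' processing notes, FastQC 0.11.5, Trimmomatic 0.35, RSEM and edgeR were used, in roles not stated; no source used here gives the assembler, aligner or build. Identifiers have the form of Trinity components. Counts were not used, so no counting intervals are given.

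The members and lists were chosen with earlier results of these data known. Values were taken as log2(value + 1) and fitted by limma 3.58.1 (R 4.3.3) with a coefficient for each group; eBayes used its trend and robust options. p-values were adjusted by Benjamini-Hochberg over all transcripts reaching 1 in 2 or more libraries, in 8 leaf libraries or, between tissues, in all 16. Fold changes on this scale understate changes of low transcripts. The fit was tried on simulated data with normal noise of equal spread in all groups. In the real data the leaf 96 h PEG replicates differed more than the other leaf replicates. That trial therefore does not show how reliable the leaf 96 h calls are. Replicates are biological per the labels, with no source for separate cultures, so a p-value covers the spread between these samples. Identifiers were printed for the 2 largest rises and 2 largest falls in leaf at 96 h (adjusted p under 0.05, higher group's mean 10 or more, groups apart). Others were given by rank: 1 to 5, the last, the 3 highest means, the next 3 rises and falls, and the 2 largest tissue differences each way. Alternatives were constants of 0.1 and 5, no filter and a filter at 5, 3 scalings, the 4 compared libraries alone, a replicate block and each library left out. Members chosen anew under each scaling, and members with a leaf mean of at least 2 outside the leaf 96 h PEG libraries, were added after seeing the data.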

Additional observations from a re-analysis of the deposited data

How the results depend on the processing

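In leaf at 96 h, 81 members risen and 8 fallen became 28 and 74 at the same total per library; members fallen were 4 with median-ratio factors, 23 with DN47470_c0 removed and 5 with spread from the 4 compared libraries, and 5 to 16 with single libraries left out. Over all transcripts 4770 rises became 2619 with the component removed and 593 at the same total, and 11898 falls became 21398 there; falls were 71.4% of all calls as deposited, 58.0% with median-ratio factors, 85.7% with the component removed and 97.3% at the same total. The members' median of 1.38 was −1.25 at the same total. Members of ranks 78, 72, 90 and 111 changed by 0.052, 0.034, 0.13 and 0.45 with median-ratio factors, against −0.50, −0.47, −0.41 and −0.10 as deposited.

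In the 96 h controls, 29 members higher in root became 47 with the component removed, 15 at the same total, 49 with the 4 libraries alone and 17 to 32 with single libraries left out; 15 higher in leaf became 6, 3, 29 and 6 to 22. Over all transcripts 10706 higher in root became 25717 without a filter, 4969 with a filter at 5 and 4371 to 12529 with libraries left out, and 5820 higher in leaf became 3491 at the same total and 8856 with the 4 libraries alone. Calls higher in leaf were 35.2% of all as deposited and 22.1% with the component removed or at the same total. With the component removed, 35.6% of all transcripts tested were higher in root and 10.1% in leaf. At the same total these shares were 27.3% and 7.75%.

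After 96 h of PEG, 14 members higher in root became 8 with median-ratio factors, 38 with the component removed, 65 at the same total and 8 to 16 with libraries left out; 79 higher in leaf became 48 and 17 with the component removed and at the same total. Over all transcripts 14180 higher in root became 25618 at the same total, and 5382 higher in leaf became 2660 with the component removed and 717 at the same total, which were 27.5%, 11.3% and 2.72% of calls, and 39.0% with median-ratio factors. The median of members turned from −1.74 to 1.65 at the same total, and from 2.06 below to 0.42 above that of all transcripts. The causes were not tested beyond the construction of the same-total scaling.

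The selection found 117 transcripts, 64 with a constant of 5 and 271 at the same total (110 of the 117 among them), and 117 to 213 with single libraries left out; 81 of the 117 met it with median-ratio factors and 77 with the component removed. Chosen anew and tested under the same scaling, 81.4% rose in leaf at 96 h with median-ratio factors, 46.6% with the component removed and 11.8% at the same total, against 69.2%; their medians were 2.24, 0.45 and −1.94, against −0.24, −1.06 and −1.99 over all transcripts, and 4, 27 and 215 fell. Over the 110 members with a leaf mean of at least 2 outside the leaf 96 h PEG libraries, a choice made after seeing the data, 74 rose and 8 fell.

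Replicate numbers pair no samples by label, and differences between replicates correlated by −0.0867 to 0.0707 between groups. With the replicate block 79 members rose and 6 fell in leaf at 96 h, 28 and 15 were higher in root and leaf in the 96 h controls, and 14 and 76 after PEG.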
